A study of Homo sapiens with 20 samples.

Results

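The ubiquitin-specific proteases (USPs) were examined for N6-methyladenosine (m6A) peaks in cisplatin-sensitive T24 and cisplatin-resistant T24R2 bladder cancer cells. Members were the protein-coding genes of the GENCODE annotation (hg38) whose symbol is USP followed by a number and at most 1 letter, without the USP17 copies, which gave 51 of 20033 protein-coding genes. A gene was called marked in a library when the summit of at least 1 peak, the base of highest pull-down signal, lay in one of its exons. Of 231465 peaks in all lists, 154137 had a summit in an exon of a protein-coding gene and 716 had one in an exon of a USP gene.

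The measurement was methylated RNA immunoprecipitation sequencing (MeRIP-seq), in which fragmented RNA is pulled down with an antibody to m6A (IP) and sequenced beside the same RNA without pull-down (input). T24 is a human bladder cancer line, and T24R2 was derived from it by serial exposure to cisplatin and was kept in medium with the drug, so resistance, drug exposure and descent from 1 selected line cannot be told apart. Both lines were labelled wild type, collected on day 3 and grown in RPMI with serum, and each had 5 IP and 5 input libraries, 20 samples in all. Peaks had been called in each of the 10 IP libraries against input, and no label says whether replicates were separate cultures, so p-values below measure the spread between these samples only.

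USPs are the largest family of deubiquitinases, cysteine proteases that remove ubiquitin from proteins and so spare them from the proteasome, change their sorting or end a signal. Different members act on histones, on DNA repair proteins, on receptors at endosomes, on mitochondria or at the proteasome itself, and several are studied as drug targets in cancer. m6A is the most common internal modification of mRNA, is placed by the METTL3 and METTL14 methyltransferase at the motif DRACH (any base but C, a purine, A, C, then any base but G), lies mainly in long internal exons and around stop codons, and is read by proteins that alter splicing, translation and decay.

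The lists held 17203 to 22901 peaks in T24 and 22671 to 33120 in T24R2, and the depth behind them is unknown because they hold no read counts. A peak needs both methylation and enough RNA, and fewer cells carrying a transcript cannot be told apart from less RNA per cell, so a missing peak says only that none was called. The cells were checked against urothelial markers by the same peaks: 4 of 9 were marked in at least 1 library, with KRT7 in all 10 libraries, GATA3 in 5 of 5 T24 and 0 of 5 T24R2 libraries, and KRT8, KRT19, UPK1B, UPK2 and UPK3A in none. Among markers of other cells, the leukocyte genes PTPRC and CD3E had no exonic peak, the endothelial gene PECAM1 had one in every library and the fibroblast collagen COL1A1 had one in a single T24 library. Whether these differences bear on the USP genes was not tested.

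The stretches below show what lay under the peaks that the results turn on, each as 25 bases of hg38 on the strand of the gene, with the DRACH match nearest to the summit in capitals. The first 3 come from the 3 USP regions with more T24R2 than T24 libraries at an unadjusted Fisher's exact p under 0.05, none of which passed adjustment. They lie in USP37 in its 3′UTR at chr2:218454806-218454830, USP24 in coding exon 2 at chr1:55178101-55178125, both minus strand, and USP40 in its distal 3′UTR at chr2:233476095-233476119, minus strand. A match is a description and does not locate the methylated base.
USP37: cgggagcaacAAACAgctcagggcc
USP24: atgagaatggAAACTgctcagggga
USP40: ccaacagtccAAACCcctaccagac

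The next stretch lies in exon 10 of USP35 at chr11:78209831-78209855, plus strand, the region whose rank differed most between the lines. It holds a GGACT, a form of DRACH with the GGAC core.
USP35: tcgaaggcctGGACTccaaggaagc

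Highly ranked regions are shown by 4 more stretches, from the 3 regions with the highest median percentiles and from the sixth, in USP54: the single coding exon of USP27X at chrX:49880306-49880330 (plus strand), the last exon of USP31 at chr16:23069097-23069121 (minus strand), exon 14 of USP45 at chr6:99446137-99446161 (minus strand) and exon 20 of USP54 at chr10:73516648-73516672 (minus strand). USP27X and USP54 carry GGACT, and USP31 and USP45 carry AGACA and AAACT.
USP27X: ttatgtgtaaGGACTatgtatatga
USP31: gcgactccgtAGACAgctctccagt
USP45: gtcagcaggtAAACTgctgtacacc
USP54: actgacttggGGACTtccttgcctt

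Most of the family was marked. Exonic peaks were found in 41 of 51 USP genes (80.4%) in at least 1 library and in 27 (52.9%) in all 10 libraries, beside 51.1% and 27.5% of all protein-coding genes. The denominators may include genes that these cells do not express, and USP transcripts are long, with a median of 5090 nt beside 2885 nt for all protein-coding genes. The 10 genes without an exonic peak were USP5, USP6, USP9Y, USP11, USP14, USP18, USP19, USP26, USP29 and USP44. Between these extremes, 14 genes were marked in 1 to 9 libraries.

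By library, 32, 29, 35, 34 and 30 USP genes were marked in T24 replicates 1 to 5 and 31, 35, 35, 37 and 37 in T24R2 replicates 1 to 5. The means were 32 ± 2.55 and 35 ± 2.45 (SD, n = 5 each), the ranges overlapped, and the share of all protein-coding genes marked moved the same way, from 36.0% ± 1.73 to 40.6% ± 2.40. Per 1000 exonic peaks, USP genes took 4.62 ± 0.118 in T24 and 4.69 ± 0.251 in T24R2. The share of peaks that fell in USP genes therefore differed by less than the spread between replicates.

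**Figure D1:**
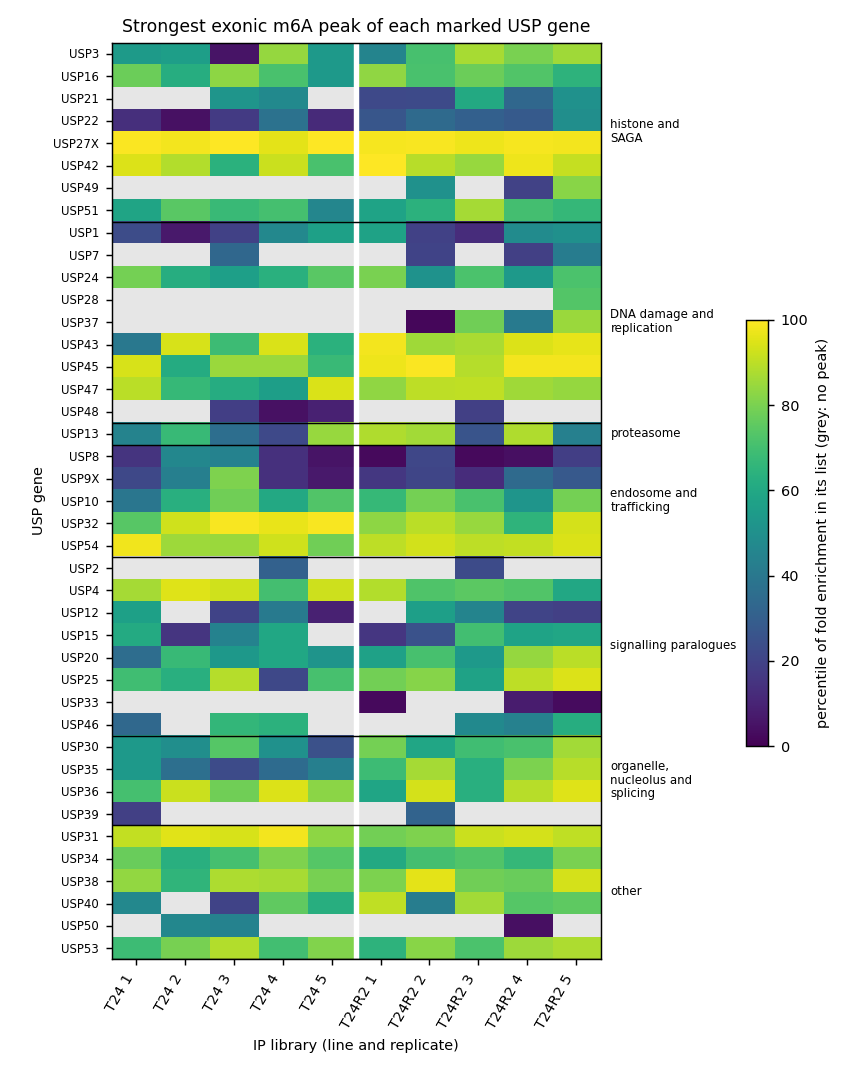
Strongest exonic peak of each of the 41 marked USP genes (rows, grouped by role) in each of the 10 IP libraries (columns), coloured by the percentile of its fold enrichment within the list, with grey for no peak. USP27X stays at the top of the scale in every library, USP8 and USP22 stay mostly low, and USP37, USP33, USP49 and USP28 are grey in all 5 T24 libraries.

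To compare peak positions, the lists were merged into 43676 regions, of which 110 held an exonic summit of a USP gene. One region lay under both USP8 and USP50, giving 111 pairs of gene and region. All 10 libraries shared 40 of the 110 regions (36.4%), and 17 (15.5%) came from 1 library alone, beside 21.9% and 27.9% of all regions. More T24R2 than T24 libraries had a peak in 53 USP regions, fewer in 9 and as many in 48. Over all regions, where the T24R2 lists are longer, the same counts were 22953, 8543 and 12180.

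To compare presence between the lines, 5 libraries were set against 5 by Fisher's exact test (two-sided), which reaches p = 0.00794 at best and p = 0.0476 for 4 against 0 or 5 against 1. By gene, USP37 was the 1 member with an unadjusted p under 0.05, in the direction of T24R2, and no member passed in the direction of T24. Over all 10233 genes with an exonic peak the background was 5.8% in the direction of T24R2 and 2.28% in that of T24 (594 and 233 genes, but 310 and 286 with lists of equal length), so 1 of 41 in the direction of T24R2 was below it. By region, 3 USP regions passed in the direction of T24R2, in USP24, USP37 and USP40, and 0 in that of T24, beside 7.11% and 2.09% of all regions (3106 and 915, but 1322 and 1143 with lists of equal length). After Benjamini-Hochberg adjustment over all genes or all regions, Fisher's exact test called 0 (percent called 0), members included.

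Strength was compared over the 9577 regions called in all 10 libraries, 40 of them in 26 USP genes. Each library's fold enrichment of IP over input was turned into a percentile within its own list, since enrichments from lists of unknown depth are not on 1 scale, and limma compared the lines with Benjamini-Hochberg adjustment over all 9577 regions. In 1 of 40 USP regions, in USP35, the percentile was higher in T24R2 and in 0 it was lower, beside 0.731% and 0.167% of all regions called in these directions. At an unadjusted p under 0.05 by limma, 6 of 40 USP regions and 1333 of all 9577 regions passed. The 6 were all higher in T24R2, which is also the direction of the median shift over all regions (4.84 points). The 1333 were not split by direction. In 3 USP regions, all higher in T24R2, the lines did not overlap, beside 3.63% of all regions higher and 0.867% lower.

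Percentiles were shifted upward in T24R2 across the transcriptome: the median difference was 4.84 percentile points over all 9577 regions and 9.60 over the 40 USP regions. Ranked only among the shared regions, which takes list length out, the medians were 0.0700 and 4.41 points. On that scale every library has the same mean, so the small median over all regions follows from the scale and measures no effect of list length. With it limma called 0 USP regions, beside 0.689% of all regions higher and 0.501% lower in T24R2. The USP median lay above that of all regions on both scales, and no test was made of it because the members are not replicates.

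**Figure D2:**
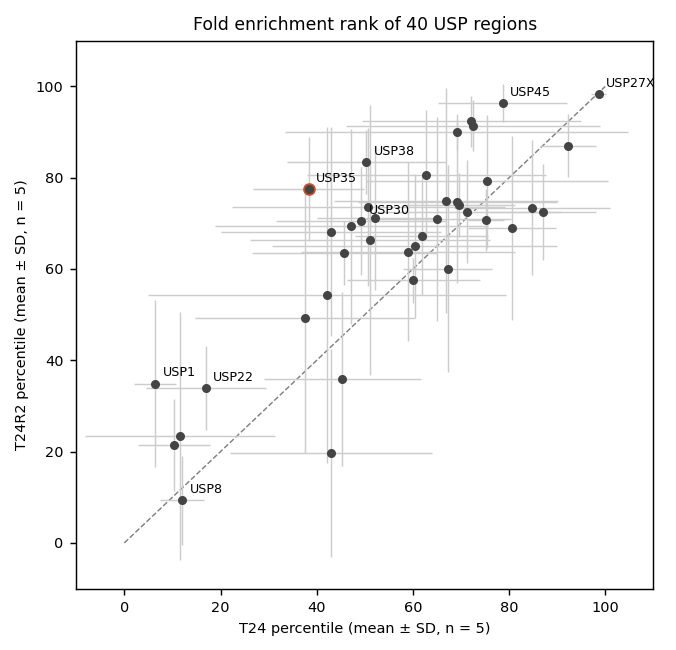
Percentile of fold enrichment of the 40 USP regions called in all 10 libraries, T24 on the horizontal and T24R2 on the vertical axis (points, means; bars, SD over 5 libraries; dashed line, equality). Most points lie above the line, USP35 (orange) farthest, and USP27X sits in the upper right corner.

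Among the histone deubiquitinases, 8 of 9 genes were marked and 6 in all 10 libraries. USP22 is the catalytic subunit of the SAGA deubiquitinase module, which removes ubiquitin from histone H2B, and USP27X and USP51 can take its place on the same adaptor proteins. USP27X had the highest-ranked region of the family, in its single coding exon (chrX:49879878-49881853, plus strand). The region held 22 summits over 1512 nt. Its percentile was 99.4, 98.1, 99.8, 95.9 and 99.7 in T24 replicates 1 to 5 and 98.7, 98.9, 97.3, 98.6 and 98.2 in T24R2 replicates 1 to 5. All 10 libraries were near the top of their lists and the lines overlapped fully. Fold enrichment there was 22.6 ± 4.68 in T24 and 20.7 ± 3.08 in T24R2 (SD, n = 5).

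USP22 had a lower-ranked peak in its 3′UTR, 384 nt after the stop codon (chr17:21002400-21003126, minus strand). T24 libraries gave 13.6, 4.57, 17.1, 37.7 and 11.8 and T24R2 libraries 26.9, 34.6, 30.7, 28.1 and 49.4. The T24 values lay below every T24R2 value except replicate 4, which lay among them. The difference of 17.0 ± 7.72 points (SE) had an unadjusted p of 0.0488 and an adjusted p of 0.356 by limma. USP51 was marked in all 10 libraries, but its peaks fell in 5 regions and none was called in every library.

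USP42, which acts on H2B and p53, had its strongest region in exon 15 of 18, an exon of 1440 nt. Its percentiles were 94.8, 88.6, 43.0, 91.8 and 44.4 in T24 and 99.9, 89.4, 84.7, 91.9 and 91.1 in T24R2. The T24R2 libraries were all high, whereas T24 replicates 3 and 5 were far below the other T24 libraries, and the adjusted p was 0.495 by limma. USP16, a histone H2A deubiquitinase, was marked in every library in exon 14, at a mean percentile of 69.6 ± 11.8 in T24 and 73.9 ± 7.04 in T24R2. USP3, which also acts on H2A, was marked in every library in its 3′UTR, and USP3 has an antisense gene that the unstranded lists cannot separate.

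USP21 and USP49 were marked less often. USP21, an H2A deubiquitinase, was marked in exon 3, which is 621 nt long, by 2 T24 and 5 T24R2 libraries (p = 0.167, Fisher's exact test). USP49, which acts on H2B, was marked in 0 of 5 and 3 of 5 libraries (Fisher's exact p = 0.167), and exons of another annotated gene overlap both of its regions. Neither member reached an unadjusted p under 0.05 with 5 against 5 libraries. USP44, an H2B deubiquitinase of the spindle checkpoint, had no exonic peak and has an internal exon of 1498 nt.

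Of 11 members with roles in DNA damage and replication, 9 were marked, 5 of them in all 10 libraries. USP1, with its partner WDR48, removes ubiquitin from FANCD2 and PCNA in the repair of DNA crosslinks, the lesions that cisplatin makes. It had 5 regions, 2 of them called in all libraries, with median percentiles of 5.11 to 31.2. In exon 6 (chr1:62444766-62445288, plus strand) the percentile was 3.93, 6.32, 8.47, 12.5 and 1.04 in T24 and 54.2, 19.3, 12.8, 38.2 and 50.1 in T24R2. The lines did not overlap, although the highest T24 and the lowest T24R2 values nearly touched. The difference was 28.4 ± 8.71 points (SE), with an unadjusted p of 0.00713 and an adjusted p of 0.164 by limma.

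USP37, which stabilises cyclin A and other replication proteins, had the 1 unadjusted p under 0.05 in gene presence. No T24 library had a peak in its exons, and T24R2 replicates 2 to 5 had one at percentiles of 1.92, 78.5, 41.0 and 84.9, in the 3′UTR 97 nt after the stop codon (chr2:218454613-218454971, minus strand). The T24R2 peaks ranged from near the bottom of the list to well up in it, and replicate 1 had none. Fisher's exact p was 0.0476 unadjusted and 0.589 adjusted, and it rose to 0.167 when every list was shortened to 17203 peaks, its strongest.

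USP24, a very large deubiquitinase of p53 and of the damage sensor DDB2, was marked in all 10 libraries through its 3′UTR. Its region in coding exon 2 (chr1:55178054-55178241, minus strand) was called in 0 of 5 T24 libraries and in T24R2 replicates 1, 3, 4 and 5, at percentiles of 16.4, 2.09, 20.6 and 12.0. These are weak peaks, and in only 2 of the 4 libraries did the summit lie in the exon, with the others in the adjoining intron. Fisher's exact p was 0.0476 unadjusted and 0.517 adjusted, and 0.444 with lists of equal length.

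USP45, which acts on the repair nuclease subunit ERCC1, had 1 region, in exon 14 of 18 (chr6:99445869-99446321, minus strand). Its percentile was 94.0, 61.6, 84.8, 85.1 and 67.7 in T24 and 97.3, 99.2, 88.9, 98.3 and 98.1 in T24R2. The T24R2 libraries crowded the top of the scale except replicate 3, which lay below T24 replicate 1. The difference of 17.7 ± 7.35 points (SE) had an adjusted p of 0.308 by limma and an unadjusted p of 0.0334.

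USP43, a less studied member, had its region called in every library in its last exon, 516 nt before the stop codon. T24 libraries gave 40.1, 93.9, 68.7, 94.2 and 64.0 and T24R2 libraries 98.1, 85.7, 87.1, 94.7 and 96.1. The T24R2 values lay together, while the T24 values were spread from the middle to the top, and the adjusted p was 0.408 by limma. USP47, which acts on DNA polymerase beta in base excision repair, had its strongest region at the stop codon, with percentiles of 89.8, 66.9, 49.4, 38.5 and 89.7 in T24 and 83.4, 31.3, 90.6, 85.6 and 84.0 in T24R2. The lines overlapped, T24R2 replicate 2 lay far below the other T24R2 libraries, and DKK3 overlaps USP47 so that the peaks of this locus could come from either strand.

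USP7, USP28 and USP48 were marked in 4, 1 and 4 of the 10 libraries. USP7, which acts on MDM2 and p53, was marked in 1 of 5 T24 libraries, at a percentile of 33.5 in its 5′UTR, and in 3 of 5 T24R2 libraries, at strongest percentiles of 19.9, 19.0 and 42.1 in its 3′UTR (Fisher's exact p = 0.524). USP28, which stabilises MYC, had 1 exonic peak in T24R2 replicate 5, at a percentile of 73.1 and outside its canonical transcript. USP48 was marked in 3 of 5 T24 and 1 of 5 T24R2 libraries. The BRCA2 partner USP11 and the p53 deubiquitinase USP29 had none.

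Of 3 members that act at the proteasome or on free ubiquitin chains, USP13 alone was marked, in all 10 libraries, just after its stop codon, where an exon of another annotated gene overlaps the region. Its percentiles ran from 22.0 to 84.7 in T24 and from 25.9 to 88.0 in T24R2, a wide spread within both lines. Its paralogue USP5, which dismantles free chains, and USP14, a deubiquitinase of the proteasome's regulatory particle, had no exonic peak in any library.

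All 5 marked genes of the 7 in the endosome and trafficking group were marked in every library. USP8 spares receptors such as EGFR from lysosomal decay, and its region in exon 11 was among the lowest-ranked of the family. Percentiles were 15.0, 9.61, 16.5, 13.8 and 5.31 in T24 and 2.35, 21.2, 2.54, 1.97 and 18.6 in T24R2. No library placed it in the upper part of its list, and the difference of -2.72 points had an adjusted p of 0.898 by limma. USP9X, which stabilises MCL1 among many substrates, had a similarly low region in exon 35, an exon of 754 nt. Percentiles there were 21.5, 8.80, 4.43, 14.0 and 3.12 in T24 and 11.0, 21.0, 12.7, 34.6 and 27.8 in T24R2. The lines overlapped, and the adjusted p was 0.516 by limma. A 5′UTR region of USP9X, called in 4 T24 and 5 T24R2 libraries, reached 43.0 and 80.8 in T24 replicates 2 and 3. In the other libraries that called it the percentile was 4.07 to 16.1.

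USP10, which binds the stress granule protein G3BP1 and returns p53 to the nucleus, had its main region in exon 4 of 14, which is 1041 nt long. The percentiles were 39.3, 63.2, 73.5, 60.4 and 72.7 in T24 and 54.8, 79.1, 71.4, 52.3 and 79.1 in T24R2. Both lines covered the same middle range, and the adjusted p was 0.833 by limma. USP32, the gene from which the hominoid USP6 partly derives, had a region 8 nt after its stop codon with 57.9, 92.6, 39.9, 96.7 and 90.1 in T24 and 78.1, 89.6, 84.6, 54.4 and 89.2 in T24R2. Its values ranged widely within both lines.

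USP54, a relative of USP53, had 3 regions called in all libraries, as had USP38, and no other member had more than 2. The strongest was in exon 20, which is 1373 nt long. T24 libraries gave 97.8, 59.1, 84.8, 92.8 and 11.1 and T24R2 libraries 89.9, 93.4, 87.5, 85.1 and 94.5. Replicates of T24R2 lay close together near the top, replicate 5 of T24 lay near the bottom, and the adjusted p was 0.560 by limma. An antisense gene of PPP3CB overlaps part of this locus.

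The signalling paralogues were less regularly marked, 8 of 9 in at least 1 library but 3 in all 10. USP4 and USP15, close paralogues that both act in TGF-beta signalling, were marked in 10 and 9 libraries. The USP15 region had its summit 20 nt before the stop codon, and one of the 2 USP4 regions had its summit 94 nt after it. USP12 and USP46 are near-identical partners of WDR48 and WDR20. USP12 was marked in 8 libraries, with its summit 100 nt after the stop codon. USP46 was marked in 6 libraries, 5 of them through a region 84 nt after the stop codon and 2 through one 6425 nt after it. USP20 and USP33, both substrates of the VHL ubiquitin ligase, were marked unequally: USP20 was marked in every library and USP33 in 0 T24 and 3 T24R2 libraries (p = 0.167, Fisher's exact test), each time low in the list at a percentile of 2.53 to 7.66. USP25 was marked in every library, USP2, a deubiquitinase of cyclin D1, in 1 library of each line, and USP18, which removes the ubiquitin-like ISG15, in none.

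In the organelle, nucleolus and splicing group, 4 of 5 were marked and 3 in all 10 libraries. USP35 gave the 1 difference in rank that passed adjustment. The region lies in exon 10 of 11, 1297 nt long (chr11:78209453-78210722, plus strand). It held 16 summits over 711 nt, the highest-ranked of them 1050 nt before the stop codon. The percentile of a library is that of its strongest peak anywhere in the region. Percentiles in T24 replicates 1 to 5 were 54.1, 36.7, 22.7, 34.9 and 43.2, and those in T24R2 replicates 1 to 5 were 68.5, 86.6, 62.9, 80.1 and 89.4. Every T24R2 library lay above every T24 library. The means were 38.3 ± 11.5 and 77.5 ± 11.4 (SD, n = 5), a difference of 39.2 ± 7.94 points (SE), and limma gave an adjusted p of 0.0459. Fold enrichment was 6.14 ± 0.916 in T24 and 10.8 ± 2.79 in T24R2.

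The USP35 call was at the edge of the threshold. It was lost on the percentile of −log10 q (adjusted p 0.344), where the difference fell to 24.9 points, on the log2 fold enrichment (0.159), on the percentile among shared regions (0.0812), with the replicate number as a block (0.125), all by limma and adjusted over 9577 regions, and when any 1 of 8 of the 10 libraries was left out. The direction was T24R2 higher in every one of these settings. The exact permutation test gave the smallest p that the assignments of 5 against 5 libraries allow, 0.00794, which became 0.176 after adjustment, so no region could pass it.

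**Figure D3:**
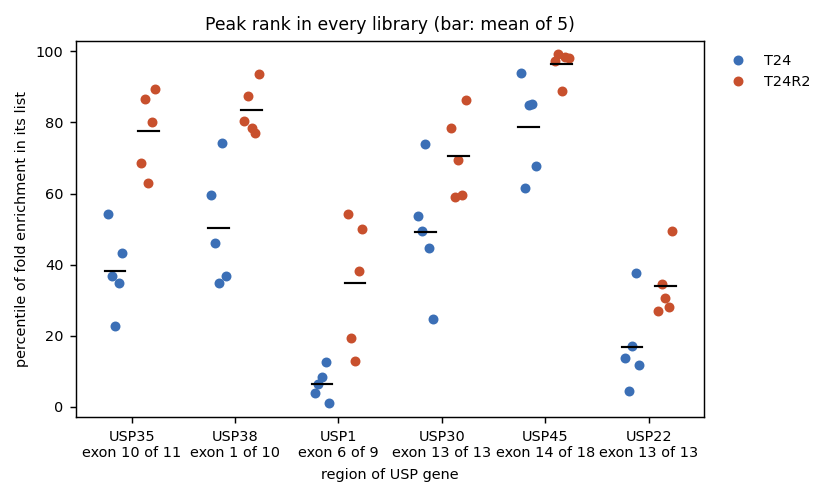
Percentile of fold enrichment in each library for the 6 USP regions with an unadjusted limma p under 0.05 (blue, T24; orange, T24R2; bars, means of 5). USP35, USP38 and USP1 do not overlap between the lines, and USP30, USP45 and USP22 do; only USP35 passed adjustment.

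USP38, the closest paralogue of USP35, had a region in its first exon (chr4:143184958-143186074, plus strand) with 59.5, 46.1, 34.8, 74.2 and 36.9 in T24 and 80.5, 87.5, 78.3, 77.0 and 93.7 in T24R2. Again no T24 library reached the T24R2 values. The difference was 33.1 ± 8.44 points (SE), with an adjusted p of 0.0989 by limma. Among the alternatives it passed when peaks were ranked by −log10 q (0.0180) and without T24 replicate 4 (0.0385), and in no other. The other USP38 regions called in all libraries, in exons 9 and 10, had means of 80.6 in T24 and 69.0 in T24R2 (adjusted p 0.648 by limma) and of 42.9 and 68.2 (adjusted p 0.418). In the exon 10 region the summit lay in the exon in 2 T24 and 4 T24R2 libraries. It lay in the intron in 3 T24 libraries and 1 T24R2 library.

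USP30, which sits on the mitochondrial outer membrane and opposes Parkin, had a region 39 nt after its stop codon. Its percentile was 53.7, 49.4, 73.8, 44.7 and 24.8 in T24 and 78.5, 59.0, 69.3, 59.6 and 86.3 in T24R2. The lines overlapped through T24 replicate 3, and the adjusted p was 0.345 by limma. USP36, the nucleolar deubiquitinase, had the most peaks of any member, 45 in 6 regions. Its region in exon 16 gave 70.6, 4.08, 3.34, 83.6 and 49.5 in T24 and 58.7, 93.4, 11.9, 86.0 and 21.4 in T24R2. Within each line these values were spread from low to high in the lists.

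USP39, a splicing factor of the tri-snRNP without protease activity, had a summit in its exons in 1 library of each line, in a region shared with C2orf68. USP19, an endoplasmic reticulum member, had none.

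Among the other members, USP31 stood out by rank. Its last exon held a region with 24 summits over 1678 nt, the highest-ranked of them 1062 nt before the stop codon. Percentiles there were 91.0, 95.5, 93.8, 98.2 and 83.0 in T24 and 78.6, 80.7, 92.2, 93.4 and 90.3 in T24R2. All libraries were high and the lines overlapped, with an adjusted p of 0.758 by limma. A second USP31 region, 3649 nt into the 3′UTR, was also called in every library, at a mean percentile of 75.3 ± 3.75 in T24 and 70.8 ± 6.71 in T24R2. USP34, a very large member that acts on axin in Wnt signalling, had 42 exonic peaks in 7 regions, and USP53, a tight junction protein, had 26 in 3 regions. Exons of another annotated gene overlap some of the USP34 regions, among them the one in exon 80, which every library called.

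USP40 had 3 regions in its last exon. The one 1272 nt after the stop codon (chr2:233475791-233476268, minus strand) was called in T24 replicate 1, at a percentile of 8.95, and in all 5 T24R2 libraries, at 38.8, 3.19, 3.33, 8.81 and 43.2. It was low in most of these lists. Fisher's exact p for 1 against 5 libraries was 0.0476 unadjusted and 0.517 adjusted, and it was again 0.0476, for 0 against 4, with lists of equal length. The nearer region, 118 nt after the stop codon, had peaks from 4 T24 and 5 T24R2 libraries, and by gene USP40 was marked in 4 and 5. USP50 shared its region with USP8 on the opposite strand, and USP26 had no exonic peak.

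On the transcript, the shares of USP peaks and of all peaks lay farthest apart in long internal exons and next in last exons. Of the 716 summits, 693 lay on the canonical transcript: 6.35% in the 5′UTR, 64.2% in coding sequence and 29.4% in the 3′UTR, beside 7.11%, 60.4% and 32.5% for all protein-coding genes. Within 200 nt of the stop codon lay 23.5% of USP summits and 23.5% of all summits. In internal exons of at least 400 nt lay 33.9% of USP summits and 20.5% of all summits. In last exons lay 49.5% of USP summits and 55.0% of all summits, and the USP share was the lower one in each of the 10 libraries.

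In every library the USP share in long internal exons was above the share of all genes. It was 36.8% ± 1.79 in T24 and 31.6% ± 2.10 in T24R2, beside 21.3% ± 0.828 and 20.1% ± 1.73 for all genes (SD, n = 5). The lowest T24 library, at 34.5%, lay just above the highest T24R2 library, at 34.3%, and the difference between the lines was not tested. Such exons are common in the family: 23 of 51 members (45.1%) have one, beside 18.3% of all protein-coding genes. Among members marked in all 10 libraries 16 of 27 have one, beside 4 of 14 marked in fewer and 3 of 10 unmarked. The share was also higher among all protein-coding genes marked in all 10 libraries, 34.5% (1903 of 5514). Summits of 1 gene are not independent, and genes with many peaks, such as USP36 with 45 and USP54 with 43, weigh more than others.

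**Figure D4:**
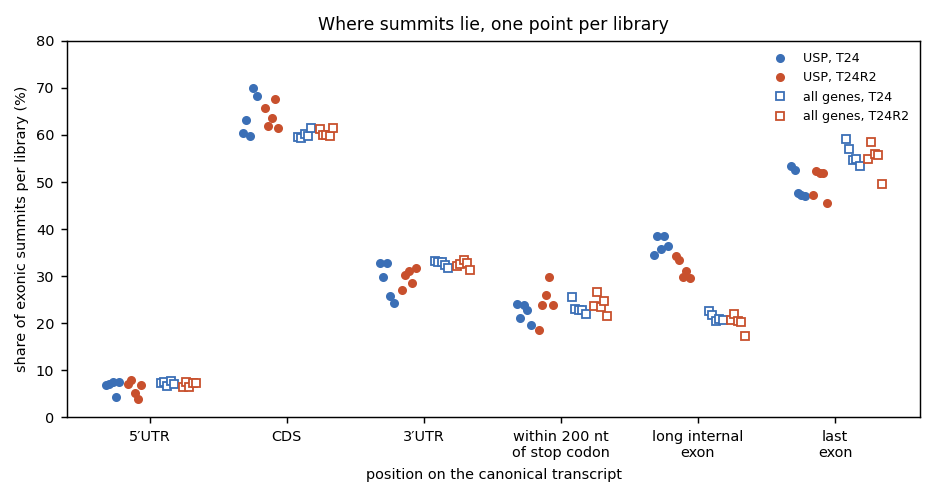
Share of exonic summits (percent, vertical axis) in each part of the canonical transcript, 1 point per library (filled circles, USP genes; open squares, all protein-coding genes; blue, T24; orange, T24R2). The USP circles lie above the squares for long internal exons, 29.5% to 38.6% against 17.2% to 22.6%, and each library's USP circle lies below its square for last exons, 45.5% to 53.4% against 49.5% to 59.2%.

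The 40 regions called in all libraries lay 27 in coding sequence, 11 in the 3′UTR, 1 in the 5′UTR and 1 outside the canonical transcript. Long internal exons held 17 of them, last exons 20, and 8 lay within 200 nt of the stop codon. The exception in the 5′UTR was exon 2 of USP54, which is 564 nt long. The region of USP4 outside its canonical transcript was strong, at 87.1 ± 11.0 in T24 and 72.5 ± 10.5 in T24R2.

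**Figure D5:**
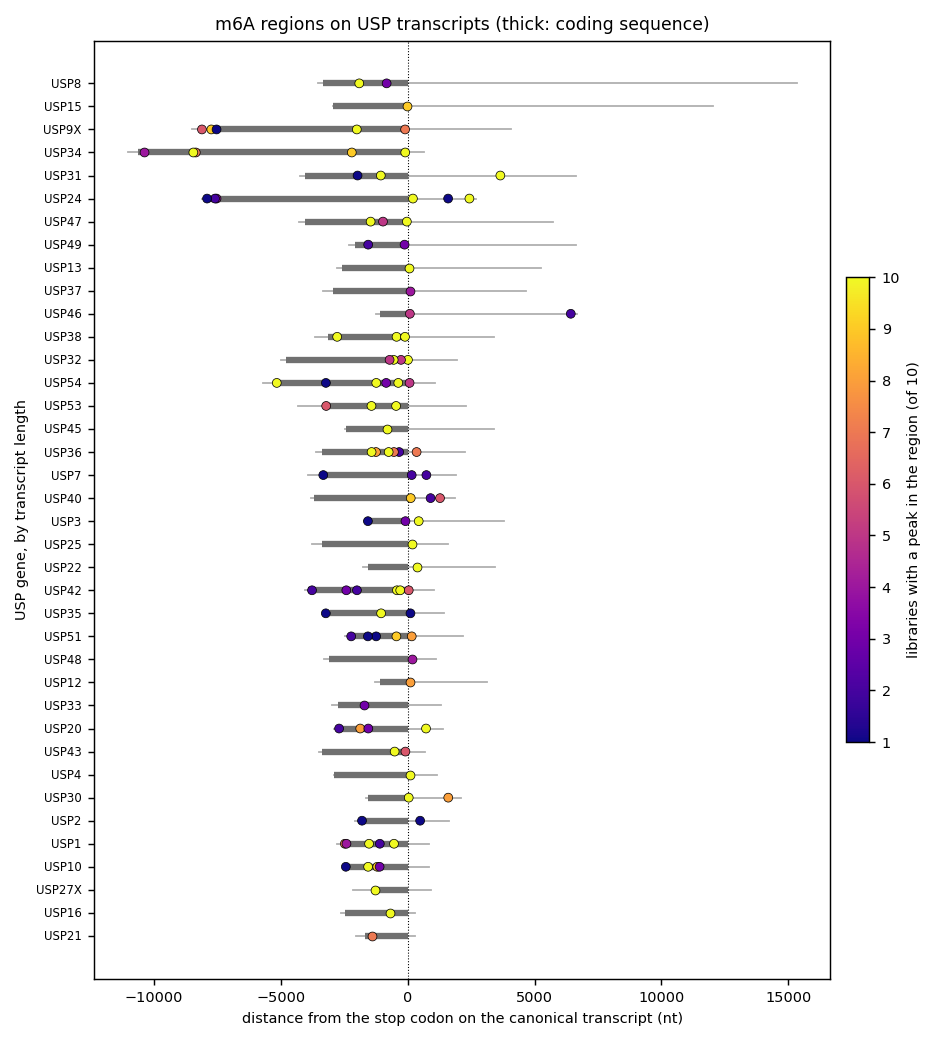
Regions on the canonical transcript of each marked USP gene, placed by distance from the stop codon in nt (dotted line at 0; thick grey, coding sequence; thin grey, UTRs; colour, number of the 10 libraries with a peak). Regions found in all 10 libraries (yellow) lie mostly in the coding sequence, and 8 of the 40 lie within 200 nt of the stop codon. The 3′UTRs of USP8 and USP15, the longest transcripts, carry no region far from the stop codon.

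A DRACH lay within 50 nt of 91.5% of USP summits on the strand of the gene and of 75.9% on the other strand, which served as background, beside 90.1% and 70.3% for all genes. The core GGAC was rarer in the family: 36.7% of USP windows held it on the sense strand and 28.9% on the antisense strand, beside 49.1% and 24.9% for all genes. Within 25 nt the DRACH shares were 73.2% and 51.1% for USP summits. Sense windows held the motif more often than antisense windows in each of the 10 libraries for DRACH within 50 nt, with USP shares of 86.4% to 96.8% against 71.6% to 79.2%.

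The other deubiquitinase families and the proteins that USPs work with were counted in the same way. Of 42 deubiquitinases of the OTU, UCH, Josephin, JAMM, MINDY and ZUFSP families with CYLD, USPL1 and PAN2, 31 (73.8%) were marked in at least 1 library and 18 (42.9%) in all 10, and Fisher's exact test called 0 of them at an unadjusted p under 0.05. Among 10 partners, 9 were marked and 6 in all 10 libraries. ENY2, an adaptor of USP22 in SAGA, had a peak in 1 T24 and 5 T24R2 libraries (p = 0.0476 by Fisher's exact test, unadjusted). It was the 1 partner of the 9 marked ones under 0.05, beside 5.8% of all genes with an exonic peak in that direction. VCP had a peak in 2 and 5 libraries and G3BP1, the partner of USP10, in 1 and 4. WDR48, WDR20, GMPS and the adaptors ATXN7, ATXN7L3 and ATXN7L3B were marked in every library, and TSPYL5 in none.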

How the data were processed

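The authors aligned reads to hg38 with STAR 2.7.0 and called peaks of IP over input with MACS2 3.0.0a6 in each library, after SAMtools 1.10 had kept uniquely mapped, deduplicated reads. Each deposited peak row gives a position, a summit, a score, the fold enrichment (a ratio of IP over input), the −log10 p-value and the −log10 q-value, and the merged regions were also deposited by the authors. Input libraries were not analysed here, and the study's count tests could not be run on peak lists.

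Summits were assigned to exons of GENCODE 44, whose canonical transcript gave positions. All 25 chromosomes named in the lists matched hg38, and no peak ended past a chromosome. A region counted as called in a library with a peak overlapping it by 1 bp. Its percentile was the mid-rank of its strongest peak by enrichment, as a percent of the peaks in the list. The position given for a region is that of its exonic summit with the highest percentile, so wide regions can hold others.

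Presence was tested by two-sided Fisher's exact tests (scipy 1.17.1) and rank by limma 3.58.1 in R 4.3.3, adjusted by Benjamini-Hochberg over all genes or regions. On simulated data for T24 against T24R2 over 9577 regions, the rank test recovered 0% of planted differences of 20 points and 29% of those of 40 points.

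Named with values in every library were members with a Fisher p under 0.05, members called by limma, the 8 with the highest median percentile, and USP1, USP7, USP8, USP9X, USP10, USP14, USP22, USP28, USP36 and USP47. USP30 and USP38 were added after their values were seen. The members, role groups and lists were chosen with earlier results of these data known. Alternatives covered stricter q-values, lists of equal length, other rules of assignment, overlap and scale, an exact permutation test, leaving out each library and a replicate block.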

Additional observations from a re-analysis of the deposited data

Results flagged for a closer look

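In 2 of 36 groups of 5 libraries tested among the named values, 1 library lay far from the other 4 by Dixon's ratio (critical value 0.71), about as many as chance flags at 1 in 20. The USP45 region in exon 14 had a percentile of 88.9 in T24R2 replicate 3, against 97.3 to 99.2 in the other T24R2 libraries (ratio 0.813). The USP47 region at the stop codon had a percentile of 31.3 in T24R2 replicate 2, against 83.4 to 90.6 in the others (ratio 0.880).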

How the results depend on the processing

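Of 616 alternative values, 527 led to the same call and direction, or moved by less than the replicate spread or 1.5 times. Lists cut at a −log10 q of at least 5 left 0 USP genes with more T24R2 libraries. At 10, 14 USP genes were marked in every library and 15 USP regions were called in every library. The mean difference between lines was 6.4 genes. USP20 and USP30 (2 genes) had more T24R2 libraries, beside 501 of all genes, and 148 of all genes had more T24 libraries. Of all regions, 1682 and 412 had more T24R2 and T24 libraries, beside 4 and 0 USP regions. Lists of equal length gave 310 genes and 1322 regions with more T24R2 libraries beside 286 and 1143 with more T24 libraries, 0 USP genes, 1 USP region (USP40) with more T24R2 and 1 (in the USP1 5′UTR) with more T24 libraries. With 50% of a region covered, 3078 of all regions had more T24R2 libraries and 519 had more T24 libraries. Of USP regions, 11 had more T24R2 libraries, 0 had more T24 libraries and 17 were called in every library.

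In the rank test, the percentile among shared regions called 66 of all regions higher, 48 lower and 0 in USP genes. Log2 enrichment called 73 of all regions and 0 in USP genes. The −log10 q percentile called 218 higher, 79 lower and 2 in USP genes (USP20 and USP38). The exact permutation test, whose smallest p no region could pass after adjustment, called 0, 0 and 0. No label says whether equal replicate numbers pair the samples. Correlations of same-numbered deviations were 0.00370, -0.0304, 0.0474, -0.0105 and 0.111, within the range of differently numbered ones (-0.134 to 0.140). With the replicate number as a block the test called 0 regions higher, 0 lower and 0 in USP genes, and the adjusted p of USP35 was 0.125. DRACH within 25 nt was at 73.2% of USP summits, 22.1 points over antisense, and GGAC at 36.7%, 7.79 points over antisense.

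Directions turned for USP10 (-0.486 points among shared regions, -0.125 to 9.27 with 1 library left out, the low end without T24 replicate 1), USP32 (-3.95 among shared regions, -0.0303 on the log2 scale, -5.15 to 9.95 with 1 library left out, negative at -0.640 and -5.15 without T24 replicates 1 and 3) and USP27X (0.209 by −log10 q, -0.944 to 0.0305 with 1 library left out, the high end without T24 replicate 3), none of which passed the test under any setting. The cause was not tested.

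Leaving out 1 library gave 1 to 3 USP genes and 3 to 8 USP regions with more T24R2 libraries. Beside these, 627 to 746 of all genes and 3280 to 4219 of all regions had more T24R2 libraries. In rank, 21 to 106 of all regions were higher and 5 to 16 lower, and 0 to 1 USP regions were higher. USP21 (without T24 replicate 3 or 4), USP49 (without T24R2 replicate 1 or 3) and USP33 (without T24R2 replicate 2 or 3) then reached an unadjusted Fisher's exact p of 0.0476. USP38 took the place of USP35 without T24 replicate 4, at an adjusted p of 0.0385 by limma. Depth is unknown, and 5 libraries a line resolve no adjusted difference in presence. In the simulation, planted differences in rank of 20 and 40 points were mostly missed.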

Other observations

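Peaks also fell in introns of USP genes. In 17 genes, 63 summits lay in an intron and in no exon, over 23 regions. USP34 had the most, with 17 summits in 2 regions called in 3 and 4 T24 and in 5 and 5 T24R2 libraries. USP28, whose exons had a single peak, had an intronic region (chr11:113820737-113821207) called in 3 T24 and 4 T24R2 libraries. Only 4 summits there, from 2 T24 and 2 T24R2 libraries, lay in an intron and in no exon. USP37 had an intronic region (chr2:218525955-218526506) called in 0 T24 and 3 T24R2 libraries, the same direction as its 3′UTR peak. One intronic region, that of USP24 which also touches exon 2, reached 0.0476 by Fisher's exact test, unadjusted.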
